A study of Homo sapiens with 6 samples.

Results

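Prostaglandin genes were read in HT29 cells, an established human line from a colorectal adenocarcinoma, after a day with or without a polyphenolic extract of cocoa. The set holds 10 genes chosen by name: the phospholipase PLA2G4A, the cyclooxygenases PTGS1 and PTGS2, the prostaglandin E synthases PTGES, PTGES2 and PTGES3, the dehydrogenase HPGD, the receptors PTGER2 and PTGER4, and the lipoxygenase ALOX5. They are 10 of 19775 genes on the arrays with a probe set of a single gene symbol, and were read by 22 of 54613 probe sets. In the cocoa group 3 cultures received 500 µg of the extract (no volume is given) for 24 h, and in the control group 3 cultures were kept for the same time. The controls are called untreated in the sample titles and saline in the protocol. Cells of both groups (300000 plated) grew in F12 medium with 7% serum, and each culture was read on an oligonucleotide array of its own. That the cultures were independent is not stated, so the p-values refer to these 6 arrays, whose number limits the precision. The limma p-values set the difference between groups against the spread between arrays of the same group.

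Prostaglandins are made from arachidonic acid, which cytosolic phospholipase A2 cuts from membrane phospholipids. Cyclooxygenases turn it into an unstable intermediate, terminal synthases turn that into prostaglandin E2, and the dehydrogenase HPGD starts its breakdown. In the colon, prostaglandin E2 acts on epithelial cells through receptors that raise cyclic AMP, PTGS2 is often induced in colorectal tumours, HPGD is often lost there, and cyclooxygenase inhibitors such as aspirin act on this step. Lipoxygenases use the same arachidonic acid to make leukotrienes and related lipids.

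The deposited values are log2 expression relative to the median of the 6 arrays for each probe set. They show how arrays differ but not how abundant a transcript is, so genes cannot be ranked by abundance, and whether HT29 cells express a gene at all, or carry the defining markers of colon epithelium, cannot be read from them. In bulk RNA of a culture, fewer expressing cells and less RNA per cell cannot be told apart. A gene's value is the mean of its probe sets. "Changed" means a limma adjusted p (Benjamini-Hochberg over all 19775 genes) under 0.05, and each log2 difference is cocoa minus control.

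The start regions of the cyclooxygenase genes are shown because both enzymes catalyse the same step and both transcripts rose. Sequences are from RefSeq (GRCh38.p14), 5′ to 3′ on the gene's strand, 250 bases before to 50 after an annotated start. Capitals mark matches on either strand. The TATA box was searched as TATAAA. The GC box was searched as GGGCGG. The core of the cyclic AMP response element was searched as CGTCA.
PTGS1, first start, chr9:122370283-122370582, plus strand: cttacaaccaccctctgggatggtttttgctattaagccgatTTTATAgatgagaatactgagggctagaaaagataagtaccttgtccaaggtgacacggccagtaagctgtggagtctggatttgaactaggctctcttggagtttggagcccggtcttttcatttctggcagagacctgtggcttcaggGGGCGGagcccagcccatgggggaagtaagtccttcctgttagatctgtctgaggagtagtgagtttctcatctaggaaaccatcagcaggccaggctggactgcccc
PTGS1, second start, chr9:122375052-122375351, plus strand: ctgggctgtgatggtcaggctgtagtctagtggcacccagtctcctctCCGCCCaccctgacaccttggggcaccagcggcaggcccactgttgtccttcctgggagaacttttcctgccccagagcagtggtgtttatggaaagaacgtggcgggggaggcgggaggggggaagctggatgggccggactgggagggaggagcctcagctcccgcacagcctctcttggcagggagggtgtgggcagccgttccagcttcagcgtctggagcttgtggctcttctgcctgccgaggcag
PTGS2, chr1:186680374-186680673, minus strand: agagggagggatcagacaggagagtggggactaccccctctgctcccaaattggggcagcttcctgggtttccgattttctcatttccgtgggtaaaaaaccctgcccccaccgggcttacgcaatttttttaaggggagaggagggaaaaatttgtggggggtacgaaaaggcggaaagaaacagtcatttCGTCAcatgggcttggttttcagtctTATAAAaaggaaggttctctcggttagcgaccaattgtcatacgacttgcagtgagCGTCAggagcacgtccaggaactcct
The PTGS2 window held TATAAA on the gene's strand from −32 to −27 and CGTCA from −58 to −54 and again from 25 to 29, counted from the start. The first PTGS1 window held GGGCGG from −58 to −53 and the TATA letters on the opposite strand from −208 to −203, and the second held 1 GC box on the opposite strand. Of 35116 windows of the same length in the table, 11.5% held TATAAA, 45% GGGCGG and 24.6% CGTCA. The core of the interferon-stimulated response element, TTCNNNGAA, a STAT site, and GCGTG, the aryl hydrocarbon receptor core, were also searched on both strands. None of the 3 was found in the PTGS1 and PTGS2 windows, and they occurred in 3.57%, 7.66% and 36.5% of all windows. Among the 13 windows of the 9 members in the table, 0 held the interferon core, 0 held TTCNNNGAA and 7 held GCGTG. Overlapping matches were each counted. A match is a run of letters and was not tested as a binding site.

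Of the 10 genes, 6 changed with cocoa, 4 higher and 2 lower, and 4 did not pass. Over all genes 13.5% changed, 7.36% higher and 6.12% lower. PTGS1 and ALOX5 rose by more than 1.5-fold, where 2.26% of all genes changed by that much and 1.85% rose by it, and the other changes were smaller. PTGS2 and PTGES rose by about 1.2-fold (1.22 and 1.23), and PLA2G4A and PTGES2 fell. The median log2 difference of the 10 genes was 0.0050, against −0.012 over all genes, with genes moving both ways. The mean of the 10 genes ran from 0.022 to 0.058 in cocoa arrays and from −0.078 to −0.026 in controls. For 8 of the 10 genes the groups did not overlap, 4 higher and 4 lower with cocoa, against 32.5% of all genes (15.4% higher and 17% lower).

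**Figure D1:**
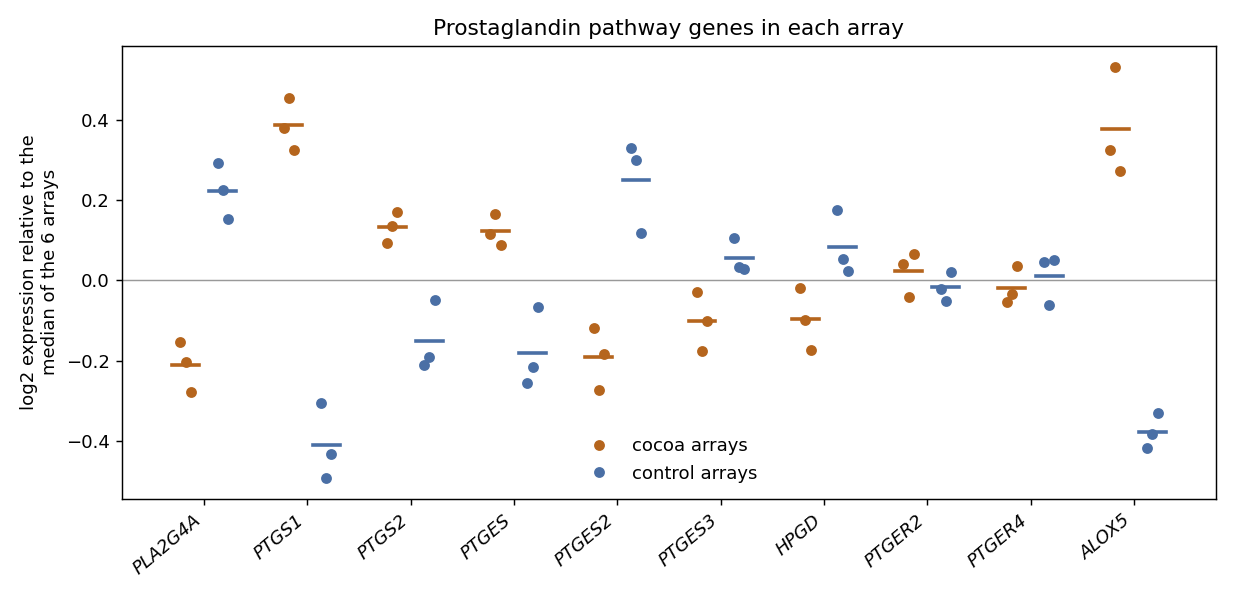
Log2 expression relative to the median of the 6 arrays (vertical axis) of each gene in the 3 cocoa arrays (brown, left) and the 3 control arrays (blue, right), with lines at group means. Cocoa lies above control for PTGS1, PTGS2, PTGES and ALOX5 and below it for PLA2G4A, PTGES2, PTGES3 and HPGD, and the groups overlap for PTGER2 and PTGER4.

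Some array signals differed between cultures. The signal of the 18S ribosomal RNA control probe sets was −0.51, 3.31 and 1.40 in cocoa arrays 1, 2 and 3, against −1.12, 0.51 and −0.53 in control arrays 1, 2 and 3. The 5′ minus 3′ signal of actin and GAPDH, a sign of RNA integrity, was 0.032, −0.26 and −0.052 in the cocoa arrays, against 0.028, 0.033 and 0.0090 in the controls. The 18S and 5′ minus 3′ signals come from values relative to the median of the 6 arrays. They compare arrays and do not show how intact the RNA of any array was. Cocoa arrays 2 and 3 stood apart in both, and results are given also with each signal as a covariate. Of markers of other cell types, 1 of 5 blood cell genes changed, where 13.5% of all genes changed. The 5 were the leukocyte genes PTPRC, CD3E, CD14 and ITGAM and the red-cell globin HBB, and the changed gene was CD14 (a lipopolysaccharide co-receptor, log2 difference 0.75, SE 0.11, limma adjusted p = 0.0032). CD14 passed in all 6 fits without 1 array (limma adjusted p 0.0028 to 0.015) and with the 18S (0.015) or 5′ minus 3′ signal (0.014). CD14 and GPA33 (below) each rest on 1 probe set. Of 9 stromal and endothelial genes 0 changed in limma, where 0 of the 9 also had an unadjusted p below 0.05. The mean of the blood cell list, HBB included, ran from −0.046 to 0.14 in cocoa arrays and from −0.18 to −0.055 in controls, and that of the stromal list from −0.021 to 0.013 in cocoa arrays and from −0.049 to 0.11 in controls. Of 12 colon epithelium markers 1 rose, GPA33 (0.24, SE 0.068, limma adjusted p = 0.048). It passed in 1 of 6 fits without 1 array (0.045 to 0.15) and missed with the 18S signal (limma adjusted p = 0.20) or the 5′ minus 3′ signal (0.17) in the fit and with array weights (0.060). The mean of that list ran from −0.014 to 0.072 with cocoa and from −0.047 to −0.020 in controls. Their part in the results was not tested.

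PLA2G4A, the cytosolic phospholipase A2 that releases arachidonic acid, fell. Its values were −0.15, −0.20 and −0.28 in the cocoa arrays, against 0.29, 0.22 and 0.15 in the controls. Every cocoa array lay below every control. The log2 difference was −0.43 (SE 0.069, 95% interval −0.59 to −0.28, n = 3 per group), which is 1.35-fold lower (limma adjusted p = 0.0039). It kept its call without any single array (limma adjusted p 0.0064 to 0.024). It also did so when the 18S signal (0.033) or the 5′ minus 3′ signal (0.024) was added to the fit. The gene rests on 1 probe set, 210145_at, whose same values were less secure in the table of probe sets. There the limma adjusted p was 0.014, it passed in 3 of 6 fits without 1 array (0.021 to 0.068), and it missed with the 18S (0.091) or 5′ minus 3′ signal (0.062). PLA2G4A lies next to PTGS2 on chromosome 1 in the RefSeq gene table, with 1 gene, PACERR, listed between them, and their log2 differences were of opposite sign.

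PTGS1, the cyclooxygenase known for steady expression in most tissues and in platelets, had the largest difference of the 10 genes. It read 0.38, 0.45 and 0.32 in the cocoa arrays, against −0.30, −0.49 and −0.43 in the controls. The groups lay far apart relative to their spread, with means of 0.39 ± 0.065 with cocoa and −0.41 ± 0.096 in controls (SD, n = 3 each). PTGS1 rose 1.74-fold (log2 difference 0.80, SE 0.073, 95% interval 0.63 to 0.96, limma adjusted p = 0.00026), the increase of rank 187 by size among all 19775 genes. Leaving out any single array gave a limma adjusted p between 0.00087 and 0.0023. The 18S covariate gave 0.0032 and the 5′ minus 3′ covariate 0.0029.

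All 4 probe sets of PTGS1 rose at the adjusted threshold over 54613 probe sets, where 7.98% of probe sets changed. The probe set 238669_at had the largest log2 difference, 1.07 (SE 0.094), with 0.57, 0.76 and 0.45 in the cocoa arrays, against −0.45, −0.52 and −0.45 in the controls. The probe sets 215813_s_at and 205128_x_at differed by 0.85 (SE 0.087) and 0.79 (SE 0.10). The smallest difference was 0.48 (SE 0.10) in 205127_at, which read 0.20, 0.13 and 0.21 with cocoa, against −0.13, −0.27 and −0.49 in controls. Its limma adjusted p, 0.025, lay between 0.031 and 0.092 in the fits without 1 array, and it passed in 1 of the 6. Adding the 18S signal gave 0.093, and adding the 5′ minus 3′ signal gave 0.069. The other 3 PTGS1 probe sets passed in all 6 and with both covariates.

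PTGS2, the inducible cyclooxygenase of inflammation and of many colorectal tumours, rose less. It read 0.093, 0.14 and 0.17 in the cocoa arrays, against −0.21, −0.19 and −0.049 in the controls. The groups did not overlap, and the closest arrays were cocoa array 1 and control array 3. The log2 difference was 0.28 (SE 0.069, 95% interval 0.13 to 0.44), a fold of 1.22 (limma adjusted p = 0.026). The call was lost without cocoa array 2 (0.065), cocoa array 3 (0.079), control array 1 (0.097) or control array 2 (0.11), and with the 18S covariate (limma adjusted p = 0.12) or the 5′ minus 3′ covariate (0.10). Its probe sets 1554997_a_at and 204748_at had differences of 0.26 (SE 0.075, limma adjusted p over probe sets 0.070) and 0.30 (SE 0.10, 0.12), so that neither passed singly.

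The log2 differences of PTGS1 and PTGS2 were 0.51 apart. Within each array, PTGS1 minus PTGS2 was 0.29, 0.32 and 0.15 with cocoa, against −0.093, −0.30 and −0.38 in controls. The groups did not overlap, and the exact permutation p was 0.1 (two-sided), the smallest that 3 against 3 arrays allow, or 0.15 when adjusted over the 3 pairs of genes compared in this way. These values compare changes, since the levels of both enzymes are unknown here.

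The 3 prostaglandin E synthases did not move together. PTGES, the microsomal synthase that is often induced along with PTGS2, read 0.12, 0.16 and 0.089 in the cocoa arrays, against −0.26, −0.22 and −0.066 in the controls. The cocoa arrays were all higher, and the control arrays were the more spread (SD 0.038 with cocoa and 0.10 in controls). PTGES rose 1.23-fold (log2 difference 0.30, SE 0.071, limma adjusted p = 0.023). The call was lost without cocoa array 2 (0.068), control array 1 (0.087) or control array 2 (0.0996), and with the 18S (limma adjusted p = 0.12) or 5′ minus 3′ signal (0.10) in the fit. Only 1 of its 2 probe sets changed. The probe set 210367_s_at read 0.17, 0.54 and 0.16 with cocoa, against −0.21, −0.41 and −0.16 in controls (difference 0.54, SE 0.12, limma adjusted p over probe sets 0.031). It passed in 1 of 6 fits without 1 array (0.035 to 0.13) and missed with the 18S (limma adjusted p = 0.18) or 5′ minus 3′ signal (0.11). The other, 207388_s_at, overlapped between groups, with 0.067, −0.21 and 0.022 in cocoa arrays, against −0.30, −0.022 and 0.024 in controls (difference 0.061, SE 0.11, limma adjusted p = 0.83).

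PTGES2, a membrane-associated synthase, fell. It read −0.12, −0.27 and −0.18 in the cocoa arrays, against 0.33, 0.30 and 0.12 in the controls. No cocoa array reached the lowest control. The log2 difference was −0.44 (SE 0.079, 95% interval −0.62 to −0.26), which is 1.36-fold lower (limma adjusted p = 0.0069). Leaving out any single array gave a limma adjusted p of 0.0087 to 0.039. Adding the 5′ minus 3′ signal gave 0.044, and adding the 18S signal gave 0.058, where the call was lost. Over the table of probe sets its single probe set, 218083_at, had a limma adjusted p of 0.021, passed in 2 of 6 fits without 1 array (0.027 to 0.0996) and missed with the 18S (0.13) or 5′ minus 3′ signal (0.096). PTGES2 and PTGES, which both lie on chromosome 9, had differences of opposite sign. PTGES minus PTGES2 was 0.23, 0.44 and 0.27 within the cocoa arrays, against −0.59, −0.52 and −0.18 within the controls (difference 0.74, exact permutation p = 0.1, the smallest possible, and 0.15 adjusted over the 3 pairs). In every cocoa array PTGES was higher, and PTGES2 lower, than in any control. The permutation p of this pair was therefore fixed by the values of the separate genes and adds no support.

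PTGES3, a cytosolic synthase also known as the HSP90 co-chaperone p23, did not pass. It read −0.029, −0.18 and −0.10 in the cocoa arrays, against 0.10, 0.034 and 0.029 in the controls. The groups did not overlap, but the gap between them was small. Its log2 difference was −0.16 (SE 0.067, 95% interval −0.31 to −0.0062, limma adjusted p = 0.17), and a decrease of the size seen for PTGES2 lies outside this interval. PTGES3 rests on 1 probe set, 200627_at. In the fit over probe sets its 95% interval was −0.33 to 0.019, which includes no difference (limma adjusted p = 0.28).

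**Figure D2:**
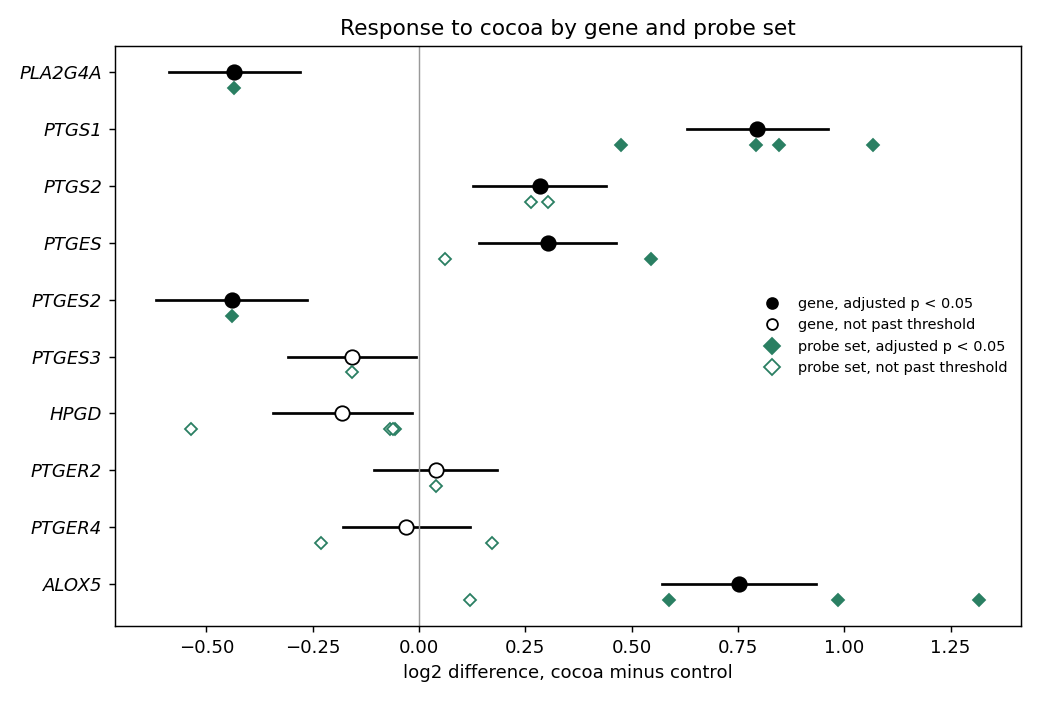
Log2 difference, cocoa minus control (horizontal axis), of each gene (circles, bars are 95% intervals from limma) and of its probe sets (diamonds). Filled symbols have an adjusted p under 0.05, over all genes for circles and over all probe sets for diamonds. All 4 probe sets of PTGS1 and 3 of 4 of ALOX5 are filled, and the probe sets of PTGER4 lie on both sides of 0.

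HPGD, the dehydrogenase that inactivates prostaglandin E2, did not pass. Its values were −0.018, −0.099 and −0.17 in the cocoa arrays, against 0.18, 0.053 and 0.023 in the controls. The groups did not overlap, and the nearest arrays were cocoa array 1 and control array 3. The log2 difference was −0.18 (SE 0.072, 95% interval −0.34 to −0.017, limma adjusted p = 0.14). Its 4 probe sets gave different pictures. The probe sets 203913_s_at, 203914_x_at and 211548_s_at overlapped between groups, with differences of −0.068, −0.057 and −0.061. The fourth, 211549_s_at, read −0.053, −0.58 and −0.28 with cocoa, against 0.46, 0.18 and 0.053 in controls (difference −0.54, SE 0.15, limma adjusted p over probe sets 0.067). That p was 0.033 to 0.20 without 1 array, 0.30 with the 18S signal in the fit and 0.23 with the 5′ minus 3′ signal, and cocoa array 2, its lowest reading, had the highest 18S signal and the lowest 5′ minus 3′ signal of the 6 arrays.

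The receptors PTGER2 and PTGER4, which couple prostaglandin E2 to cyclic AMP, did not pass. PTGER2 read 0.042, −0.041 and 0.067 in the cocoa arrays, against −0.021, −0.051 and 0.021 in the controls. PTGER4 read −0.055, −0.035 and 0.036 with cocoa, against 0.046, −0.062 and 0.050 in controls. The groups overlapped for both. The log2 differences were 0.040 for PTGER2 (SE 0.064, 95% interval −0.10 to 0.18, limma adjusted p = 0.77) and −0.029 for PTGER4 (SE 0.066, 95% interval −0.18 to 0.12, limma adjusted p = 0.84). Changes as large as those of PLA2G4A or PTGES2 lie outside both intervals. PTGER2 minus PTGER4 within arrays also overlapped (difference 0.069, exact permutation p = 0.2, the same after adjustment over the 3 pairs). The small value of PTGER4 is a mean of probe sets that differ in sign. The probe set 204896_s_at differed by 0.17 (SE 0.098, limma adjusted p over probe sets 0.37), and 204897_at by −0.23 (SE 0.077, 0.12), with its cocoa arrays between −0.22 and −0.069 and its control arrays between 0.069 and 0.12.

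ALOX5, the lipoxygenase that starts leukotriene synthesis and is best known from myeloid cells, rose about as much as PTGS1. It read 0.33, 0.53 and 0.27 in the cocoa arrays, against −0.42, −0.38 and −0.33 in the controls. The controls were close together and all below the cocoa arrays, which were more spread (SD 0.14 with cocoa and 0.044 in controls). The fold was 1.68 (log2 difference 0.75, SE 0.080, 95% interval 0.57 to 0.93, limma adjusted p = 0.00058), the increase of rank 211 among all genes. It kept its call without any single array (limma adjusted p 0.0014 to 0.0047) and with the 18S (0.0061) or 5′ minus 3′ covariate (0.0036), where the difference was 0.67 and 0.66.

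Of 4 ALOX5 probe sets 3 rose. The largest, 204446_s_at, read 0.58, 0.76 and 0.51 in the cocoa arrays, against −0.77, −0.81 and −0.51 in the controls (difference 1.32, SE 0.11, a fold of 2.49). The probe sets 214366_s_at and 204445_s_at differed by 0.99 (SE 0.096) and 0.59 (SE 0.096). The fourth, 213952_s_at, overlapped, with −0.11, 0.46 and 0.0024 with cocoa, against −0.25, 0.24 and −0.0024 in controls (difference 0.12, limma adjusted p over probe sets 0.76). All 4 have names that end in _s_at, the design's mark for probes that can match more than 1 transcript.

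Over the 22 probe sets of the 10 genes, 10 changed, 8 of them higher (4 of PTGS1, 3 of ALOX5 and 1 of PTGES) and 2 lower (PLA2G4A and PTGES2). Over all probe sets 7.98% changed, 4.68% higher and 3.3% lower. The groups did not overlap in 15 of the 22, against 27.6% of all probe sets, and were higher with cocoa in 10 (12.9%) and lower in 5 (14.7%). A change of at least 1.5-fold was found in 6, all of them higher, against 2.73% of all probe sets in either direction and 2.03% higher. The count of changed probe sets was 6 without cocoa array 3 and 6 without control array 2. No probe set passed as lower in these fits, in the fit without control array 1 or with either covariate, so the single probe sets of PLA2G4A and PTGES2 missed the threshold there.

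**Figure D3:**
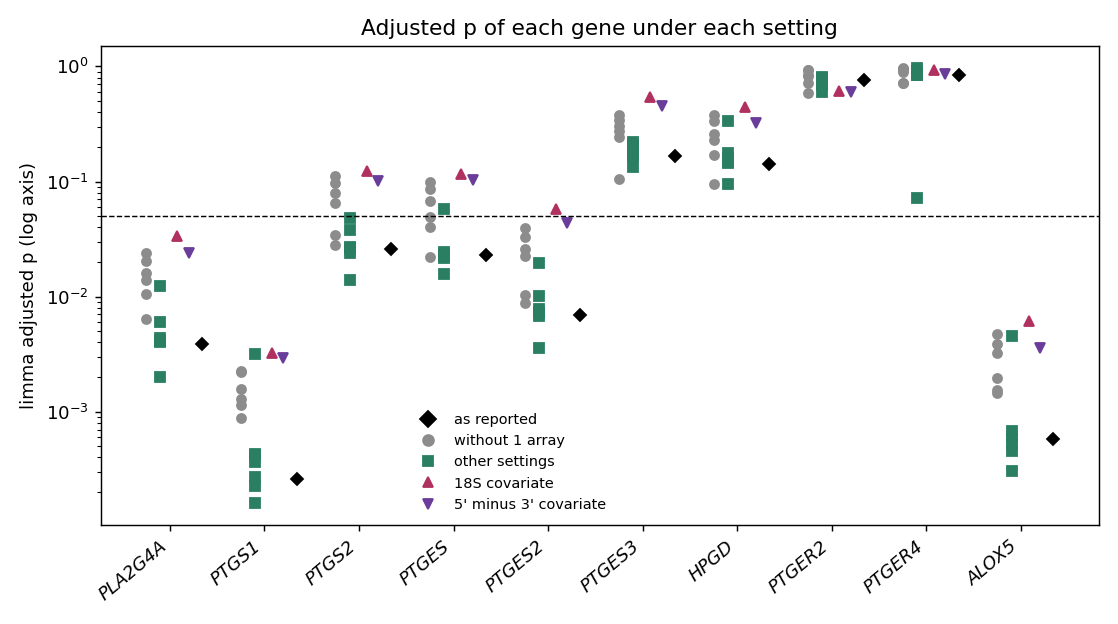
Limma adjusted p over all genes (vertical log axis, dashed line at 0.05) of each gene as reported (diamonds), without 1 array (grey circles), with the 18S (upward triangles) or 5′ minus 3′ covariate (downward triangles) and under other settings (squares). PLA2G4A, PTGS1 and ALOX5 stay under the line throughout, PTGS2, PTGES and PTGES2 cross it, and PTGES3, HPGD, PTGER2 and PTGER4 stay above it.

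Other genes were counted from 7 lists of 84 genes, of which 77 were measured. The lists hold genes of arachidonic acid metabolism, prostanoid and leukotriene receptors, and regulators of the PTGS2 transcript. Of the 77 genes 6 rose, 1 fell (NFKB1, listed as a regulator) and 70 did not pass, and 13.5% of all genes changed. The median log2 difference of the 77 was 0.016 against −0.012 over all genes.

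Among 23 measured phospholipases and enzymes that handle arachidonate, 3 rose, none fell and 20 did not pass (median 0.069). PNPLA8, a calcium-independent phospholipase A2 of mitochondria and peroxisomes, read 0.15, 0.19 and 0.26 with cocoa, against −0.22, −0.27 and −0.15 in controls, and rose by 0.41 (SE 0.066, limma adjusted p = 0.0042). MGLL, the lipase that frees arachidonic acid from an endocannabinoid, read 0.20, 0.29 and 0.12 with cocoa, against −0.10, −0.23 and −0.21 in controls, and rose by 0.38 (SE 0.072, limma adjusted p = 0.0087, 0.059 with the 18S signal in the fit and 0.051 with the 5′ minus 3′ signal). PLAAT3, a phospholipase first known from fat tissue, rose by 0.39 (SE 0.087, limma adjusted p = 0.018), a call lost without cocoa array 3 (0.061) or control array 2 (0.084). These 3 were higher in each cocoa array than in any control, whereas PLA2G4A was lower in each. In the list of 23 the groups did not overlap for 10 genes, 7 higher and 3 lower with cocoa. Over all genes 32.5% did not overlap, 15.4% higher and 17% lower.

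Of 7 other terminal prostanoid synthases 1 rose and 6 did not pass (median 0.050). It was AKR1C3, an aldo-keto reductase that makes prostaglandin F compounds, with a difference of 0.32 (SE 0.077, limma adjusted p = 0.024), and it passed in 2 of the 6 fits without 1 array (0.017 to 0.10) and with neither covariate (0.13 and 0.12). It passed without cocoa array 1 and without cocoa array 3 and missed without cocoa array 2 or any control array. PTGDS and TBXAS1, the synthases of prostaglandin D2 and thromboxane, differed by 0.097 (SE 0.094) and 0.095 (SE 0.065).

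Of 6 genes of transport and further breakdown 1 rose and 5 did not pass (median 0.045). PTGR2, a reductase that acts on the product of HPGD, read 0.40, 0.39 and 0.16 in the cocoa arrays, against −0.50, −0.40 and −0.16 in the controls. It rose 1.59-fold (log2 difference 0.67, SE 0.10, limma adjusted p = 0.0031), and passed in all 6 fits without 1 array and with both covariates. CBR3, a carbonyl reductase, had the next largest difference, 0.20 (SE 0.092, limma adjusted p = 0.20), and PTGR1, a reductase related in function to PTGR2, one of 0.082 (SE 0.078). SLCO2A1, the uptake carrier of prostaglandins, and ABCC4, an exporter, differed by 0.0038 (SE 0.074) and 0.0069 (SE 0.12).

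None of 8 genes in the list of other prostanoid receptors changed (median −0.074). The list includes PTGFRN, which is named for a receptor but is not itself a prostanoid receptor. The lowest unadjusted p in limma was that of TBXA2R, the thromboxane receptor (log2 difference −0.19, SE 0.082, unadjusted p = 0.044, limma adjusted p = 0.17), and 1 of the 8 had an unadjusted p below 0.05. None of 15 other lipoxygenase and leukotriene genes changed either (median 0.020), and 0 of the 15 had an unadjusted p below 0.05 in limma. The largest difference was that of ALOX12B, a lipoxygenase of the skin barrier (0.16, SE 0.078, limma adjusted p = 0.24). ALOX5AP, the protein that presents arachidonic acid to ALOX5, read −0.035, 0.12 and 0.27 with cocoa, against −0.014, 0.014 and −0.064 in controls (difference 0.14, SE 0.083, limma adjusted p = 0.34). LTB4R, a receptor of leukotriene B4, had a difference of −0.13 (SE 0.061, limma adjusted p = 0.20). It was the only 1 of the 15 whose groups did not overlap, against 32.5% of all genes. LTA4H, which makes leukotriene B4, differed by 0.020 (SE 0.067), and LTC4S, which makes leukotriene C4, by −0.12 (SE 0.076).

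The list of epoxygenases and epoxide hydrolases also holds other cytochrome P450 genes. Of its 6 measured genes 1 rose and 5 did not pass (median 0.028). CYP2J2, a cytochrome P450 that turns arachidonic acid into epoxides, read 0.43, 0.89 and 0.28 with cocoa, against −0.28, −0.46 and −0.37 in controls. It rose 1.87-fold (log2 difference 0.91, SE 0.14, limma adjusted p = 0.0032), the largest difference among the 77 genes, with cocoa array 2 the highest, and passed in all 6 fits without 1 array and with both covariates. CYP4F3, which inactivates leukotriene B4, had the next largest difference, 0.33 (SE 0.12, limma adjusted p = 0.11), and its groups overlapped. Of 12 regulators of the PTGS2 transcript 1 fell and 11 did not pass (median −0.050). NFKB1, a subunit of NF-kappaB, read −0.39, −0.33 and −0.22 in the cocoa arrays, against 0.30, 0.31 and 0.22 in the controls, a difference of −0.59 (SE 0.069, limma adjusted p = 0.00093). It kept its call in all 6 fits without 1 array and with both covariates. Like PLA2G4A, the changed genes NFKB1, CYP2J2, PTGR2 and AKR1C3 each rest on 1 probe set. Their results in the fit over probe sets are not given here.

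**Figure D4:**
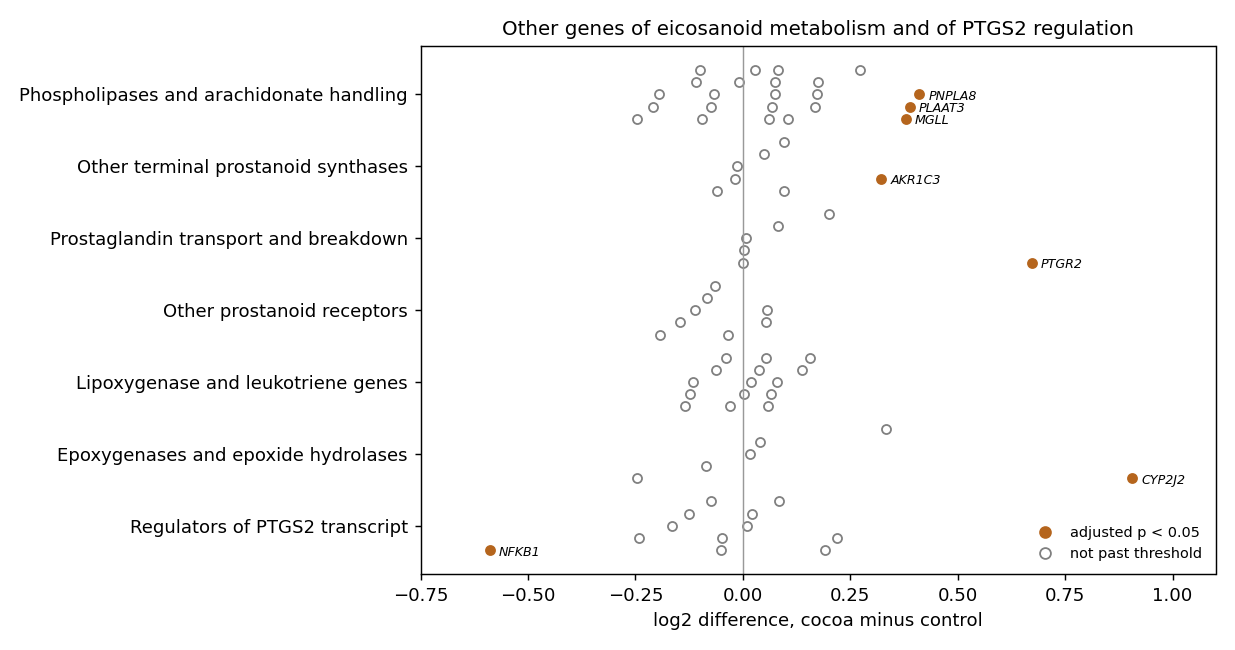
Log2 difference, cocoa minus control (horizontal axis), of 77 further genes in 7 lists (rows, points spread vertically for legibility). Filled points have a limma adjusted p under 0.05 over all genes and are named: 6 lie to the right of 0, led by CYP2J2 at 0.91, and NFKB1 lies to the left at −0.59.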

How the data were processed

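Biotin-labelled RNA of 6 HT29 cultures was read on Affymetrix U133 Plus 2.0 arrays, per the labels' protocols. The authors made the deposited log2 values with RMA (background correction, quantile normalisation and probe summary), per the submitters' processing notes. GeneSpring GX is named in the design text. Their versions and filters are not known here. The deposited table (54675 probe sets, 62 of them controls) has a median of 0 for each probe set, so centring had been applied, and the log2 base follows from RMA. Signal over background and a filter on dim probe sets could not be judged. Centring leaves differences between arrays unaltered.

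Probe sets were named from the platform annotation, and 41091 with 1 symbol were averaged per gene. Groups were compared with limma 3.58.1 (lmFit, eBayes) in R 4.3.3 over the whole table, by genes and by probe sets, after a test on simulated data. Members and lists were chosen with earlier results of these data known. All members are named, and of the other lists each changed gene and up to 3 further genes, taken from the largest difference down. LTA4H, LTC4S and SLCO2A1 were named for their roles after their values were seen. Replicate numbers did not pair the arrays. No 2 arrays were copies. Alternatives are given in the closing section. Figures used Python 3.11.15 and matplotlib 3.10.9.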

Additional observations from a re-analysis of the deposited data

How the results depend on the processing

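No member changed its sign in any of the fits run except PTGER4, whose log2 difference was 0.0044 with array weights, against −0.029 as reported. The number of changed members, 6 as reported, was 3 with the 18S covariate (PTGS1, ALOX5 and PLA2G4A), 2 with a threshold of 1.5-fold, and 4 to 6 in the fits without 1 array. The number of changed member probe sets, 10 as reported, was 4 of 9 without the suffixes _s_at and _x_at, 6 with the 18S covariate, 6 with the 5′ minus 3′ covariate, 6 with a threshold of 1.5-fold and 6 to 10 without 1 array. Without these suffixes PTGES, HPGD and ALOX5 are not measured, and 4 of the 7 members left changed. The number of changed genes in the other lists, 7 as reported, was 3 with a threshold of 1.5-fold and 5 to 11 without 1 array, 11 being the count without cocoa array 1. The causes were not tested. Same-numbered arrays of the 2 groups did not deviate together (correlations −0.12, −0.0089 and −0.0031 across genes). With the replicate number as a block, 5 members, 7 member probe sets and 6 other genes changed, and PTGES had a limma adjusted p of 0.057. A filter on dim probe sets was not run, since centred values have no level to filter on.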

Other observations

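In the other lists the groups did not overlap for 22 of 77 genes, against 32.5% of all genes, so these lists did not stand above the background. Those next in size to the changed phospholipase genes and PTGS2 regulators are given here as values. PLA2G2A, a secreted phospholipase A2 of Paneth cells, read −0.23, −0.036 and −0.16 in the cocoa arrays, against 0.21, 0.072 and 0.036 in the controls (log2 difference −0.25, SE 0.078, limma adjusted p = 0.069). PLA2G7, which breaks down platelet-activating factor, had a difference of 0.27 (SE 0.093, limma adjusted p = 0.087). Among RNA-binding proteins that act on the PTGS2 transcript, ELAVL1, which stabilises it, had a difference of −0.24 (SE 0.082, limma adjusted p = 0.087), and ZFP36, which promotes its decay, one of 0.22 (SE 0.068, limma adjusted p = 0.064). RBM3, which also stabilises it, had a difference of 0.19 (SE 0.073, limma adjusted p = 0.12). Of the 12 regulators, 2 did not overlap and were higher (ZFP36 and RBM3) and 2 were lower (ELAVL1 and NFKB1). These counts lie near the shares over all genes, 15.4% higher and 17% lower. ZFP36 read 0.10, 0.17 and 0.046 with cocoa, against −0.18, −0.046 and −0.12 in controls.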
